A study of Rattus norvegicus with 24 samples.

Results

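The genes described are those of the cytosolic ribosomal proteins, the structural proteins of the ribosome that translates nuclear-encoded mRNA. Members were the rows of the count table whose symbol is Rpl or Rps followed by a number and at most 1 letter, together with Rpsa, Rplp0, Rplp1, Rplp2 and Fau. Where a symbol had several rows, the row with the highest mean over the 24 samples was kept. This gave 78 members among 32883 genes, and 76 of them passed the filter on low values (a mean of at least 2 normalized counts), leaving out Rplp2 and Rpl7a. Of the 78, 27 encode small-subunit proteins, 42 large-subunit proteins and 3 proteins of the P stalk, while Fau and Rps27a are made as fusions with ubiquitin or a ubiquitin-like protein and 4 are paralogs with a restricted or regulated expression. Rps19 and Rpl22 were not analysed here.

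Each ribosome holds 1 copy of most of these proteins, and a growing cell spends much of its transcription on them. Their mRNAs carry a run of pyrimidines at the very 5′ end, the TOP motif, through which TOR signaling and the protein LARP1 control how much of each mRNA is translated and stored. Ribosomal protein mRNAs are abundant in any tissue, and several of them serve as reference genes in qPCR.

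All animals were wild-type female virgin Sprague-Dawley rats aged 12 weeks that underwent simulated vaginal delivery (SVD), a pudendal nerve crush with vaginal distension, and the urethra was collected 3 or 7 days later (3d, 7d). At 1 hour after the injury they received an intra-aortic injection of saline, of MABsallo or of MABsallo-VEGF. MABsallo are mesoangioblasts, vessel-associated progenitor cells, from the gastrocnemius muscle of a 3-week-old donor rat, carrying lentiviral eGFP and firefly luciferase; MABsallo-VEGF also carry a VEGF lentivirus. The 6 groups held 4 samples each, and no group was left without injury. The labels of replicates 6 and 7 of MABsallo-VEGF at 7d carry the word recovery, without further detail. The paper compared urethras that had recovered function at 7d with those that had not. Samples with and without this word were kept as 1 group here. Since all injected cells came from 1 donor line, the groups do not sample different donors, and no sample separates the host's RNA from that of the injected cells.

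The libraries read the 3′ end of each transcript and gave 2170695 to 10166052 reads per sample. At 3d, saline libraries held 4851797 to 5249467 reads, MABsallo 2170695 to 4491900 and MABsallo-VEGF 3042531 to 4261098. At 7d every library held at least 5244129. Every library of cell-treated animals at 3d thus had fewer reads than any saline or 7d library. The part of depth in the results was not tested. Markers of smooth muscle, striated muscle and urothelium, the tissues of a urethra, were above 0 in every sample. Urothelium markers held only 0.00841% of counts in saline 3d replicate 8, against 0.0768% to 0.107% in the rest of its group. In MABsallo-VEGF 3d replicate 2 they held 0.00549%, against 0.0670% to 0.153%. Smooth muscle markers were also lowest there, at 0.121% against 0.494% to 0.967% and 0.218% against 0.474% to 0.650%. The part of this tissue content in the results was not tested. Samples from 3d differed in their content of mitochondrial RNA. The rows of mitochondrial rRNA and tRNA held 0.674% to 2.61% of all counts in 3 saline samples at 3d and 8.31% in the fourth, replicate 6. They held 14.6% to 25.7% in MABsallo at 3d, 18.1% to 24.5% in 3 MABsallo-VEGF samples at 3d and 4.08% in the fourth, replicate 4. At 7d they held 0.445% to 1.45%. Saline 3d replicate 6 and MABsallo-VEGF 3d replicate 4 thus stood apart from their groups, and the counts of called members and the shares that rest on them are given with and without both (22 samples). Both were chosen after their values were seen, on a share that differs between the groups of 3d. Leaving them out can widen the gap between these groups, so results on 22 samples show only how far the calls depend on them.

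Sequences around the annotated transcription start are shown for 6 members that passed a comparison, for Rplp0, which varied least, and for Rps16, whose share of the members' sum moved by the most percentage points, because the TOP run is the feature that ties these mRNAs to translational control. Each line gives the 15 bases before and the 15 bases from the start, on the gene's own strand, from RefSeq on GRCr8 (the counts were made on Rnor6.0), and capitals mark a C followed by at least 4 pyrimidines that begins within 5 bases of the start.
Rps23, chr2:23814502-23814531, plus strand: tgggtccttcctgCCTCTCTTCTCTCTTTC
Rps3a, chr2:173827028-173827057, minus strand: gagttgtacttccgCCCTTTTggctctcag
Rpl10, chrX:157205835-157205864, plus strand: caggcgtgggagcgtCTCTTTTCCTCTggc
Rpl19, chr10:83519049-83519078, plus strand: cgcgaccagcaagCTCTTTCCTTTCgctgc
Rpl29, chr8:115947628-115947657, plus strand: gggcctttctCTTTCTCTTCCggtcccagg
Rplp0, chr12:46718376-46718405, minus strand: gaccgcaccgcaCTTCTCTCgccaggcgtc
Rps27a, chr14:107488871-107488900, minus strand: ttccgatccgccatcgttggtgagtgtgtg
Rps16, chr1:92770643-92770672, plus strand: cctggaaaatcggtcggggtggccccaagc

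The first 6 windows hold such a run, and the windows of Rps27a and Rps16 do not. Among the 61 members with a RefSeq entry, 37 (60.7%) had the run, against 17.0% of the 33469 genes in the RefSeq promoter table. CTTCCG or its reverse complement CGGAAG, a motif that can share bases with the run, lay within the 300 bases around the start of 33 members (54.1%) and of 16.6% of all genes. A match describes these letters only, and its absence shows only that they are not in this window. Rps20 is named without a sequence.

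The level of the members spanned more than 5 orders of magnitude, from among the most abundant mRNAs of the urethra to almost no reads. Levels are mean normalized counts over the 24 samples and were not divided by length, because a 3′ library reads each transcript at its end. Rpl37a at 63494 and Rps24 at 57149 were among the highest. Of the 78 members, 33 had a mean of at least 10000, 29 lay between 1000 and 10000, 3 between 200 and 1000, and 13 below 200. The 10 highest members held 41.7% of the members' sum, while the 13 lowest held 0.0606%.

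The 13 lowest include genes whose proteins every ribosome contains. Rps6, the small-subunit protein phosphorylated by S6 kinase, had a mean of 35.0 normalized counts from 215 reads in the 24 samples together. Rps9 had a mean of 50.2, Rpl37 of 61.7, Rpl38, known for its effect on the translation of Hox mRNAs, of 25.4, and Rpl35a of 8.43. Fau had 20 reads in all, Rplp2 had 5 and Rpl7a had 2. No sample had more than 3 reads of any of these last 3 genes, so their levels could not be compared between groups.

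The authors discarded reads that mapped to more than 1 place, and ribosomal protein genes have many processed copies in the genome. RefSeq names 864 pseudogenes and 190 like-genes after the 76 members that could be matched. The 11 matched members with a mean under 200 had a median of 13 such copies (4 to 36) and the 65 with a mean of at least 200 a median of 14 (0 to 29). A number of named copies does not show how many reads of a gene were discarded. How far discarded reads lowered each gene was not tested, and levels of different members are therefore those of uniquely mapped reads.

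Rpl8, a large-subunit protein near the peptidyl transferase center, was read in almost a single sample, and is named after its values were seen. MABsallo 7d replicate 13 held 2519 normalized counts of it from 607 reads, and the other 23 samples held 0 to 33.3 normalized counts from at most 5 reads each.

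**Figure D1:**
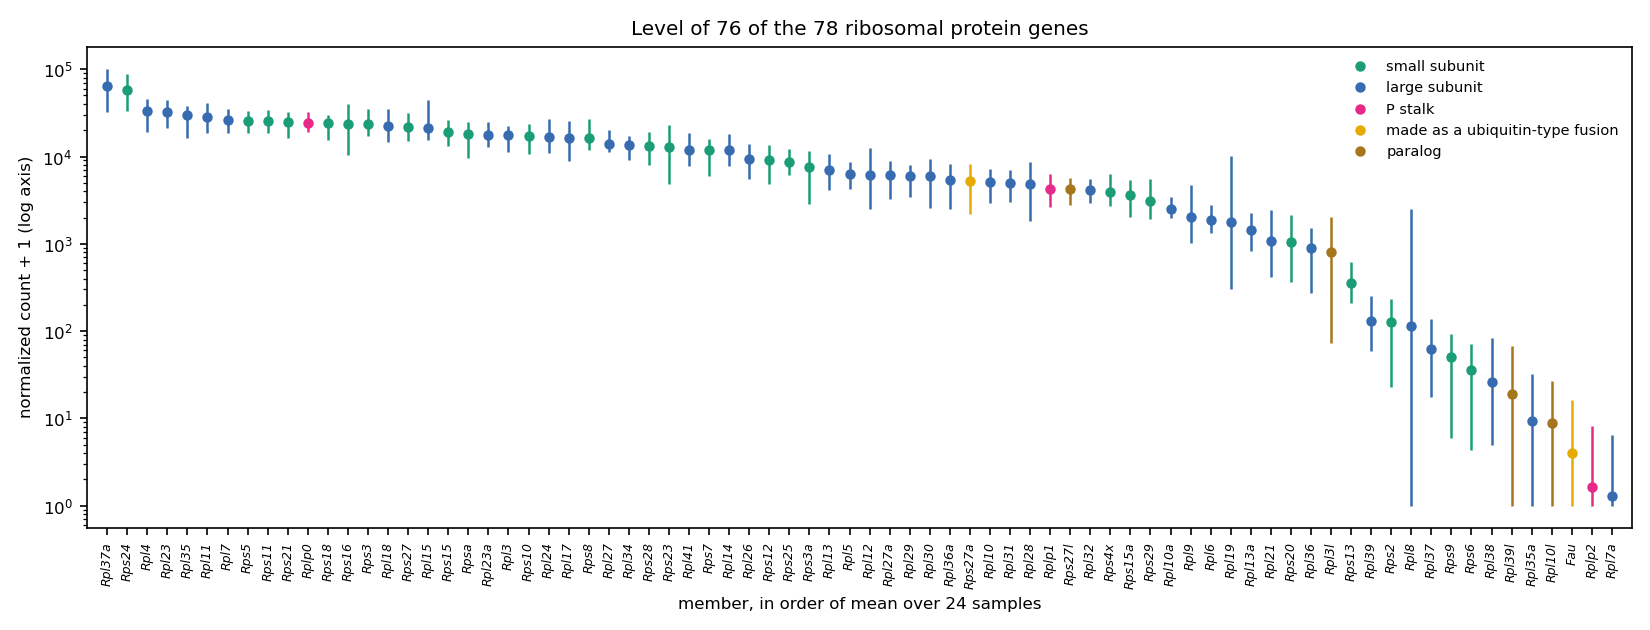
Mean normalized count plus 1 (log axis) of 76 of the 78 members over 24 samples, in order of the mean; the vertical line runs from the lowest to the highest sample and colours mark the subunit. Rpl37a and Rps24 stand at the top of those drawn, and 13 members lie below 200, where the lines of several reach down to 0 counts (drawn at 1).

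Across the 24 samples the spread differed between members. Among those with a mean of at least 1000, the highest sample held 1.66 (Rplp0) to 33.2 (Rpl19) times the lowest. For the 62 members with a mean of at least 1000, the coefficient of variation (SD as a percent of the mean) had a median of 21.1%, and only Rpl19 exceeded 50%. Rplp0, the P stalk protein that anchors Rplp1 and Rplp2 and a common qPCR reference gene, varied least at 11.6%. Its normalized counts ran from 19302 in MABsallo-VEGF 3d replicate 2 to 32063 in MABsallo 7d replicate 13. Rpl19, a large-subunit protein that is also used as a reference gene, varied most at 141%, with a lowest sample of 306 and a highest of 10146.

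The members also moved together from sample to sample. For each member the correlation of its log2 level with the mean of the other members was computed over the 24 samples, as a description, since all genes of a sample share its depth and scaling. For the 62 members with a mean of at least 1000 the median r was 0.604, from -0.09 for Rpl19 to 0.872 for Rpl34. The 14 tested members with a lower mean had a median r of 0.245. The ratio of small- to large-subunit counts stayed between 0.648 and 0.802 in every sample.

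The members together held 2.73% to 6.54% of a sample's normalized counts, and the lower shares were found at 3d in animals given cells. In saline at 3d the shares were 5.94, 6.54, 5.41 and 5.15% (5.76% ± 0.616, SD, n = 4). In MABsallo at 3d they were 3.40, 5.41, 3.87 and 3.50% (4.05% ± 0.934). In MABsallo-VEGF at 3d they were 4.28, 2.73, 4.67 and 5.68% (4.34% ± 1.23). Of the 4 MABsallo samples 3 lay below every saline sample and replicate 2 lay within the saline range, as did MABsallo-VEGF replicate 4. At 7d the groups overlapped, at 5.20% ± 0.580 in saline, 5.30% ± 0.348 in MABsallo and 5.23% ± 0.209 in MABsallo-VEGF. The mean of MABsallo at 3d was 0.703 times that of saline at 3d and the mean of MABsallo-VEGF 0.753 times. Without the samples that stood apart, saline at 3d held 5.70% ± 0.740 and MABsallo-VEGF 3.89% ± 1.03 (n = 3 each), and the ratios were 0.710 and 0.683.

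A share of all counts falls when other RNA rises, and the share of mitochondrial rRNA and tRNA was 14.6% to 25.7% in MABsallo at 3d against 0.674% to 8.31% in saline. With all mitochondrial RNA taken out of the total, the members held 6.90% ± 0.955 in saline at 3d (5.99% to 7.96%), 5.76% ± 0.900 in MABsallo (5.26% to 7.11%) and 5.98% ± 1.07 in MABsallo-VEGF (4.47% to 6.74%). The ratios of the group means then were 0.835 and 0.867, and the groups overlapped. Without the samples that stood apart, saline held 6.72% ± 1.08 and MABsallo-VEGF 5.73% ± 1.15, and these groups overlapped too. In tissue samples fewer cells of a type and less RNA per cell cannot be told apart. At 7d saline held 6.11% ± 0.684, MABsallo 6.12% ± 0.328 and MABsallo-VEGF 6.11% ± 0.318.

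**Figure D2:**
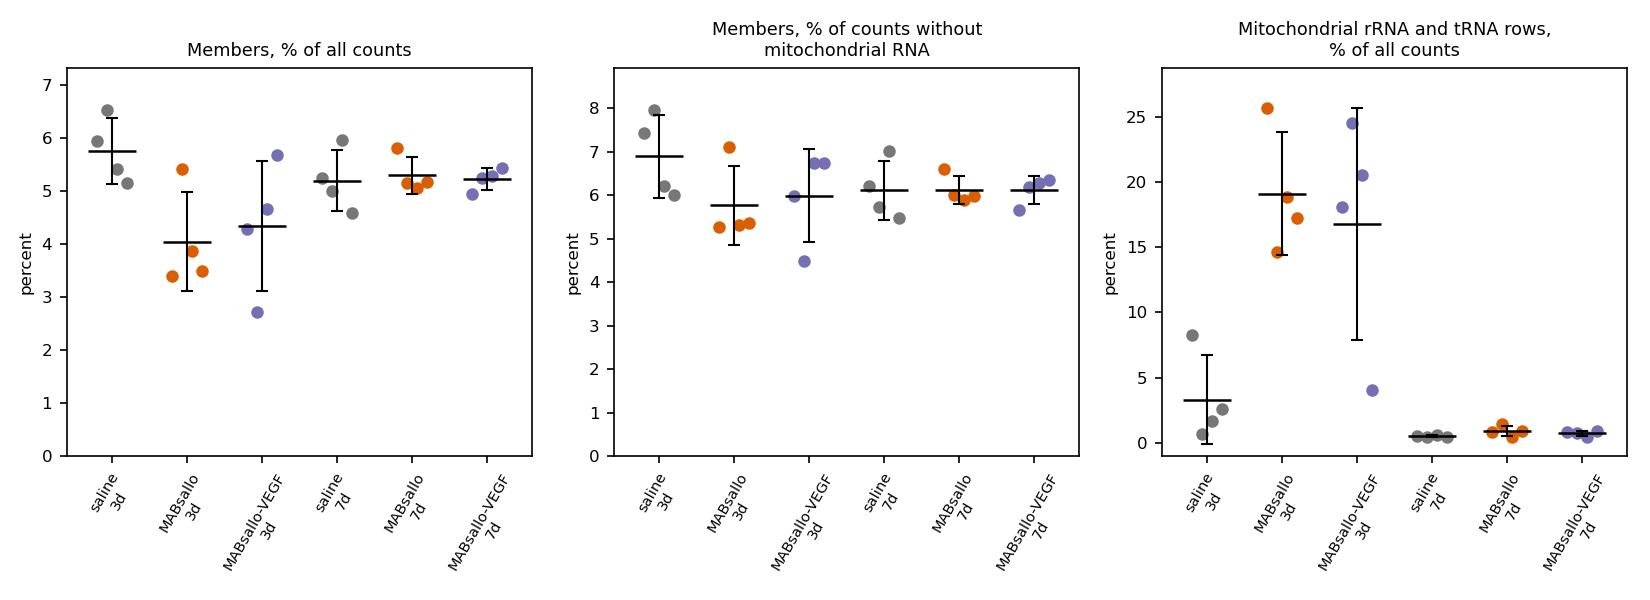
Share of the members in all normalized counts (left), in the counts without mitochondrial RNA (middle), and share of mitochondrial rRNA and tRNA rows in all counts (right), in percent, by group; each point is a sample, the line is the mean and the bar the SD of 4 samples. The members' share is lowest in cell-treated groups at 3d, where the mitochondrial share is highest, and the groups overlap in the middle panel.

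Whether MABsallo changed the members at 3d was asked gene by gene, with limma on log2(normalized count + 1) across all 16287 genes tested and adjusted p below 0.05 as the call. Fold changes are differences on this log2 scale, with their standard error. Against saline at 3d, 6 of 76 members (7.89%) fell in MABsallo, which compares with 4.48% of all genes tested. They included Rps23, Rps20, Rps3a, Rps27a and Rpl10. Rpl19 rose, 1 of 76 members, where 10.7% of all genes rose. The median member was at -0.23, the median gene at 0.07, and 51 of 76 members were negative against 47.0% of all genes. In 9 members all MABsallo samples lay below all saline samples, against 5.22% of all genes. At an unadjusted p below 0.05, 16 members were lower (11.5% of all genes) and 3 higher (19.9%). On 22 samples 7 members fell (6.82% of all genes), the same 6 and Rpl36a, and Rpl19 rose (15.8%).

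Rps23, a small-subunit protein close to the decoding site, had normalized counts of 12988, 13025, 16829 and 14428 in saline and 6930, 7812, 4902 and 10106 in MABsallo at 3d. No MABsallo sample reached the saline samples, and the gene fell by 0.98 ± 0.30 on the log2 scale (adjusted p = 0.0330).

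Rps20 was read at 1191, 1489, 979 and 1010 in saline and at 511, 717, 508 and 738 in MABsallo. The groups did not overlap, and the gene fell by 0.92 ± 0.29 (adjusted p = 0.0374). Rps20 is a protein of the head of the small subunit.

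Rps3a, a small-subunit protein, had 8044, 9313, 8391 and 7453 normalized counts in saline and 4984, 4781, 2862 and 5685 in MABsallo. Replicate 3 of MABsallo, the library with the fewest reads, was lowest. The gene fell by 0.90 ± 0.21 (adjusted p = 0.0117), the lowest adjusted p of any member in this comparison.

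Rps27a encodes ubiquitin joined to a small-subunit protein and so supplies both ubiquitin and ribosomes. It was read at 5313, 7098, 5529 and 4944 in saline and at 2989, 4344, 2188 and 4112 in MABsallo. The groups did not overlap, and it fell by 0.79 ± 0.23 (adjusted p = 0.0260).

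Rpl10, which joins the large subunit last and allows it to pair with the small subunit, had 5699, 5801, 5772 and 4423 in saline and 3316, 4738, 2936 and 3645 in MABsallo. MABsallo replicate 2 lay above saline replicate 10, and the gene fell by 0.58 ± 0.20 (adjusted p = 0.0466). Of the 6 genes that fell, 4 belong to the 27 members of the small subunit and 1 to the 41 tested members of the large subunit. The medians of the subunits were -0.21 and -0.26.

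Rpl19 went the other way. It was read at 2224, 651, 818 and 778 in saline and at 5985, 7823, 10146 and 483 in MABsallo. In 3 MABsallo samples it was above every saline sample and in replicate 4 below all of them, and the fold change was 1.99 ± 0.65 (adjusted p = 0.0422). MABsallo replicate 4 had a mitochondrial rRNA and tRNA share of 17.2%, within its group.

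The calls rested on few samples. Leaving out 1 sample at a time gave between 0 calls (without saline replicate 8) and 11 (without MABsallo replicate 2), and 1 call each without saline replicate 9, MABsallo replicate 1 or MABsallo replicate 3. A fit of the 2 compared groups alone gave 0 calls among the members, with 5 genes of all those tested past the threshold. Scaling each sample to the same total gave 0 members that rose and 17 that fell, with the median gene at -0.19 and the median member at -0.51. Markers of other cells moved in this comparison as well. All 7 macrophage markers were lower in MABsallo than in saline at 3d, 5 of them past the test, with summed shares of 0.00866% to 0.0723% against 0.129% to 0.263%. None of these markers was at 0 in any sample. The part of cell makeup, mitochondrial RNA or depth in the members' change was not tested.

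**Figure D3:**
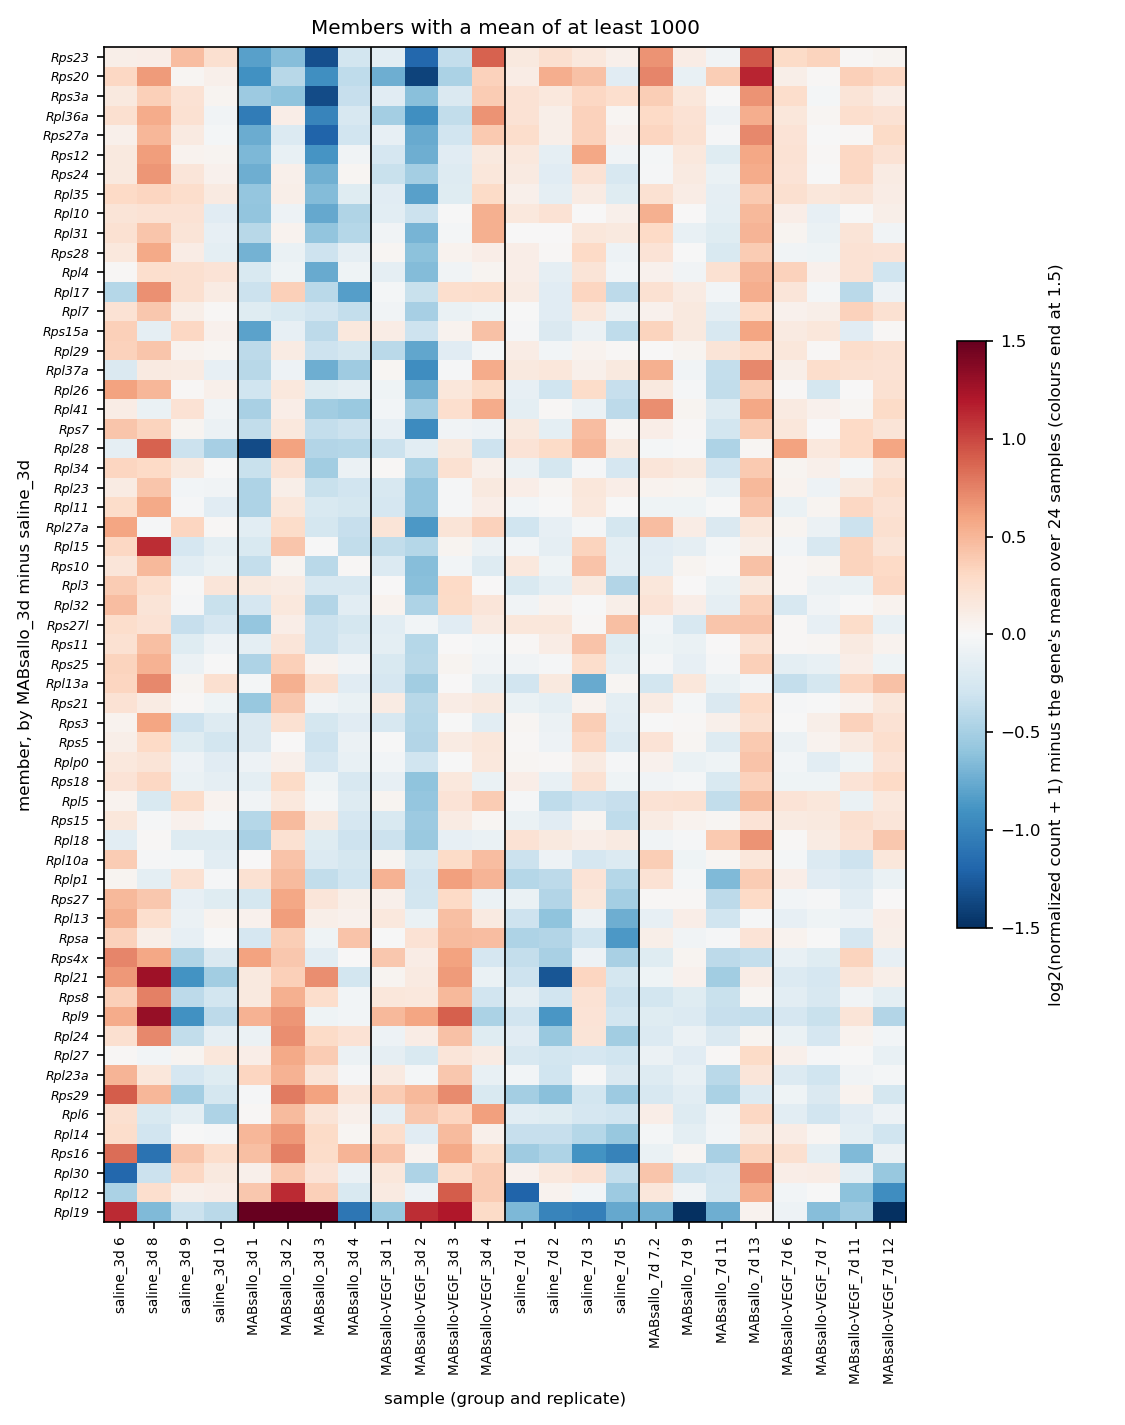
Log2(normalized count + 1) of 60 of the 62 members with a mean of at least 1000, minus each gene's mean over 24 samples; rows are members ordered by MABsallo minus saline at 3d, columns are samples, and colours end at 1.5 in either direction. The top rows, from Rps23 down, are low in most cell-treated samples at 3d, except MABsallo-VEGF replicate 4, and Rpl19 in the bottom row is high in 3 of 4 MABsallo samples at 3d.

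MABsallo-VEGF was compared with the same saline samples at 3d, so both comparisons share their controls. No member passed limma's test (0 of 76; all genes: 0.0307% rose and 0% fell), with 6 members lower (4.94% of all genes) and 1 higher (13%) at an unadjusted p below 0.05, a lowest adjusted p of 0.109, 0 calls by edgeR and 1 by DESeq2. The median member was at -0.14 and the median gene at 0.04, and 52 of 76 members were negative. Rpl29, Rpl13a and Rpl7 lay lower in every MABsallo-VEGF sample than in any saline sample, 3 members where 1.64% of all genes did so.

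Rpl29, a large-subunit protein, had 7568, 7973, 6193 and 6077 normalized counts in saline and 4515, 3459, 5302 and 5824 in MABsallo-VEGF at 3d. The groups did not overlap, with a difference of -0.56 ± 0.17 and an adjusted p of 0.109. Rps23 was read at 10955, 5392, 9495 and 22419 in MABsallo-VEGF, a difference of -0.43 with an adjusted p of 0.482. Replicate 4, with the low mitochondrial rRNA and tRNA share, held more Rps23 than any saline sample and the other 3 held less than any of them.

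The same sample stood out for other members. MABsallo-VEGF replicate 4 had 9471 normalized counts of Rps3a, 7218 of Rpl10 and 8242 of Rpl36a, each above all saline samples at 3d. The other 3 samples of its group had 4709 to 6429 of Rps3a and 2734 to 4006 of Rpl36a, below all saline samples. The 22 samples were chosen on a share that differs between these groups, which can favour calls. On them 4 members fell and 0 rose (all genes: 3.51% and 12.9%). They were Rps9 (-2.46, adjusted p = 0.00768), Rps20 (-1.11, adjusted p = 0.0135), Rpl29 (-0.62, adjusted p = 0.0267) and Rpl36a (-0.84, adjusted p = 0.0289). Rps9 rests on 1 to 20 reads per sample in these groups.

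Between MABsallo-VEGF and MABsallo at 3d no member passed the test (0 of 76; all genes: 0% rose and 0.00614% fell; 2 members higher and 1 lower at an unadjusted p below 0.05, where 3.23% and 2.9% of all genes were, and 0 calls by edgeR or DESeq2). The median member was at 0.07. On 22 samples 0 members passed (all genes: 0.0123% rose and 0.00614% fell), with 1 at an unadjusted p below 0.05 and 0 calls by edgeR, and the median member was at -0.01. On all samples Rps3a differed by 0.55 (adjusted p = 0.713), Rpl10 by 0.48 (adjusted p = 0.721) and Rpl19 by -1.41 (adjusted p = 0.785). Rpl19 had 692, 2217, 2351 and 1256 normalized counts in MABsallo-VEGF, where all 4 samples lay between the lowest MABsallo sample and the other 3. A difference between the cells with and without VEGF was not detected in any member, and these tests do not show that the groups were alike.

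**Figure D4:**
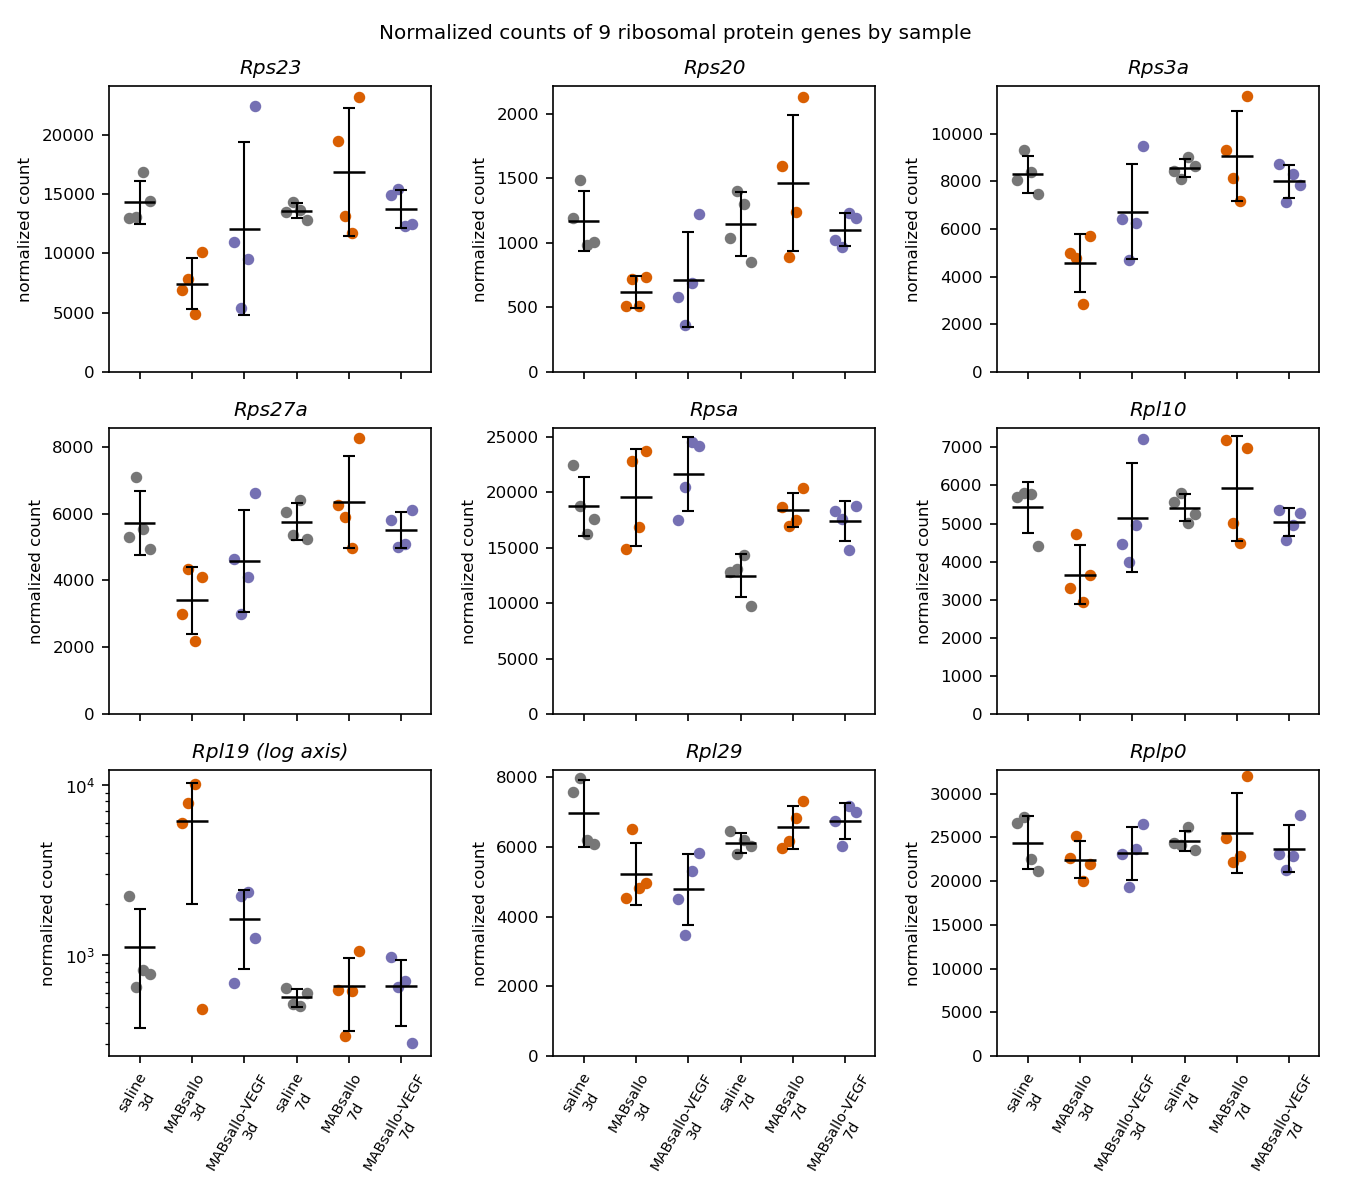
Normalized counts of 9 members by sample in the 6 groups, with the mean and SD of 4 samples; Rpl19 is on a log axis and the others start at 0. Rps23, Rps20, Rps3a, Rps27a and Rpl10 are low in MABsallo at 3d, Rplp0 stays between 19302 and 32063, and for Rps23 and Rps3a MABsallo-VEGF at 3d is spread by its replicate 4.

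At 7d no member passed the test for cells against saline. In MABsallo against saline at 7d the count was 0 of 76 (all genes: 0% in either direction), with 6 members higher (4.3% of all genes) and 0 lower (1.92%) at an unadjusted p below 0.05 and 0 calls by edgeR or DESeq2. The direction was positive for 64 of 76 members, with a median of 0.14 and a median gene of 0.02. In MABsallo-VEGF against saline at 7d it was 0 of 76 (all genes: 0%), with 3 members higher (3.31% of all genes) and 0 lower (3.03%) at an unadjusted p below 0.05 and 0 calls by edgeR or DESeq2, and 53 of 76 were positive, with a median of 0.11. Both comparisons share the saline samples. Between the cell types at 7d it was 0 of 76 (all genes: 0%), with 0 members at an unadjusted p below 0.05 (all genes: 1% higher and 1.77% lower), 0 calls by edgeR or DESeq2 and a median of -0.03.

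Rpsa, a small-subunit protein also described as a laminin receptor, did not pass either and lay further from saline than the median member. It had the lowest adjusted p of any member for MABsallo-VEGF against saline at 7d. It was read at 12846, 13046, 14314 and 9732 in saline at 7d. In MABsallo at 7d it was read at 18703, 16980, 17482 and 20398, and in MABsallo-VEGF at 18355, 17605, 14769 and 18785. Both cell groups lay above all saline samples, by 0.57 (adjusted p = 0.732) and 0.49 (adjusted p = 0.724).

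For MABsallo against saline at 7d, 6 members were higher in every sample (3.24% of all genes were), among them Rpsa, Rpl14 and Rpl36, and Rpl28 was lower in every sample (1.63%). Rpl36 had 595, 685, 546 and 270 normalized counts in saline and 1332, 1083, 784 and 975 in MABsallo, a difference of 1.05 ± 0.34 (adjusted p = 0.732). For MABsallo-VEGF 6 members were higher in every sample (2.92% of all genes were), Rpsa and Rpl14 among them. Rpl14 had 9082, 9038, 8570 and 7770 in saline at 7d, 11256, 10374, 11146 and 12728 in MABsallo and 12406, 11795, 10365 and 9347 in MABsallo-VEGF. The saline samples were the lowest of all 3 groups for Rpl14, and neither difference passed the test.

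Time was compared within each treatment, and the groups at 3d and 7d are different animals. In saline no member passed limma's test between 3d and 7d (0 of 76; all genes: 2.84% higher and 0.995% lower at 3d), with 8 higher (11.5% of all genes) and 0 lower (7.37%) at an unadjusted p below 0.05, 0 calls by edgeR and 4 by DESeq2. The median member was at 0.18 and the median gene at 0.05, and 58 of 76 were higher at 3d. On 22 samples, without saline replicate 6 of 3d, 0 members passed (all genes: 0.129% higher and 0.0614% lower at 3d), with 4 at an unadjusted p below 0.05 and 0 calls by edgeR, and the median member was at 0.15. In 9 members all 3d samples lay above all 7d samples, against 5.65% of all genes, and in Rpl18 they lay below (4.92%). Rpl13 came closest to the threshold, at 0.62 ± 0.19 (adjusted p = 0.0587). Rps16 had 39887, 10360, 29777 and 26794 in saline at 3d and 15410, 16155, 11950 and 11122 at 7d, a difference of 0.83 (adjusted p = 0.131), and 3 of 4 samples at 3d lay above all of 7d.

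In MABsallo 9 of 76 members (11.8%) were lower at 3d than at 7d, beside 11.3% of all genes, a share close to the background. At an unadjusted p below 0.05, 17 were lower (16.7% of all genes) and 3 higher (24.2%). Rpl19 was higher, 1 of 76 where 19.3% of all genes were. The 9 included Rps20, Rps23, Rps3a, Rps27a, Rps13, Rpl36a, Rpl10 and Rpl41, with Rps13, Rpl36a and Rpl41 named after their values were seen. The first 4 and Rpl10 are also among those that fell against saline at 3d, and both comparisons use the MABsallo samples of 3d. Rps20 had 1592, 887, 1239 and 2125 normalized counts in MABsallo at 7d, all above the 511 to 738 at 3d, a difference of -1.19 (adjusted p = 0.00365). Rps23 had 19452, 13132, 11714 and 23182 at 7d, all above the 3d samples, a difference of -1.17 (adjusted p = 0.00541). MABsallo 7d replicate 13 was the highest sample of that group for Rps23, Rps20, Rps3a and Rps27a.

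Rps3a had 9323, 8122, 7188 and 11558 in MABsallo at 7d, a difference of -1.01 (adjusted p = 0.00121). Rpl19 had 623, 334, 619 and 1067 at 7d and was higher at 3d by 2.67 (adjusted p = 0.00352), although replicate 4 of 3d lay inside the range of 7d. With 22 samples 9 members were lower and 2 higher (all genes: 11.8% and 20.1%), and leaving out 1 sample at a time gave 7 to 14 calls.

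In MABsallo-VEGF Rpl29 was the member that passed limma's test between the times, being lower at 3d (1 of 76; 5.21% of all genes were lower, 14.8% higher), with 7 members lower (12% of all genes) and 2 higher (21.4%) at an unadjusted p below 0.05. Its 7d samples held 6729, 6007, 7175 and 6995 normalized counts and its 3d samples 4515, 3459, 5302 and 5824, a difference of -0.52 ± 0.17 (adjusted p = 0.0329). The groups did not overlap for Rpl29 and 8 further members (9 in all; 8.01% of all genes). Without the samples that stood apart 7 members were lower (7.84% of all genes) and Rps29 was higher (18.6%). The 7 included Rpl29, Rpl36a, Rpl39l, Rps20, Rps23 and Rps9. In the samples kept, Rpl39l rests on 0 to 13 reads per sample and Rps9 on 1 to 23.

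**Figure D5:**
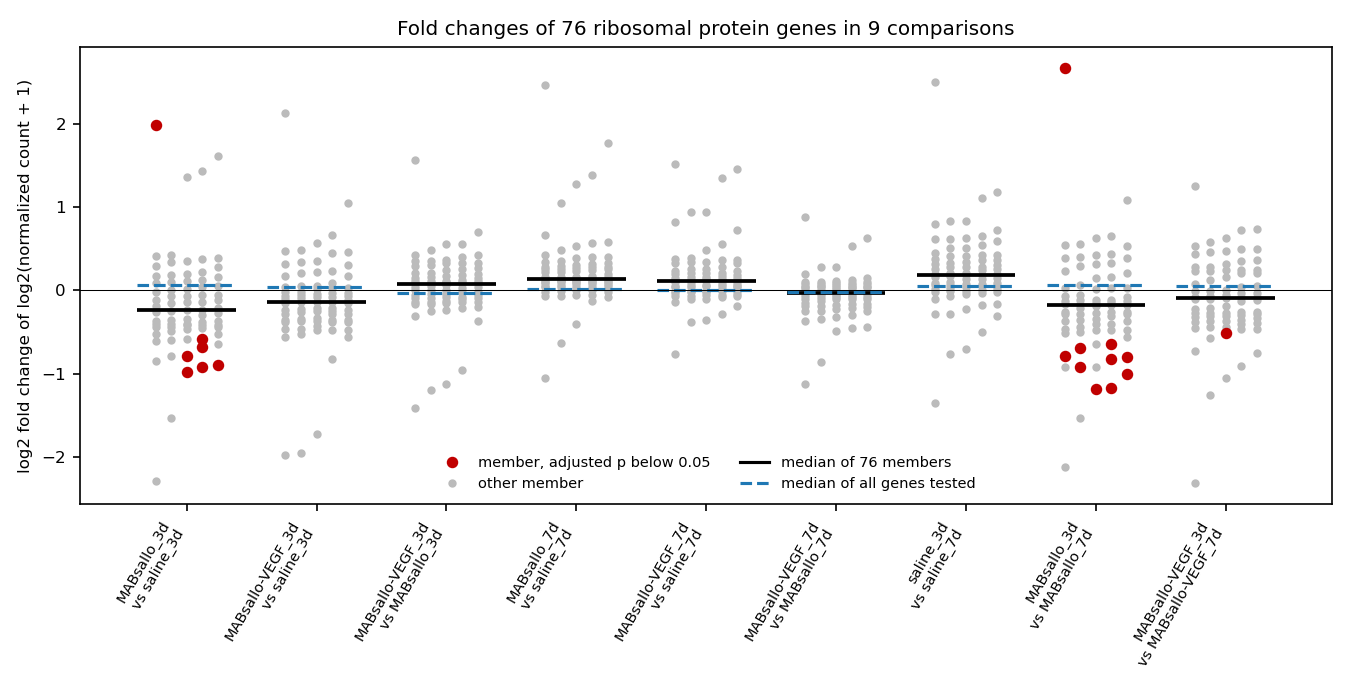
Log2 fold changes of log2(normalized count + 1) for the 76 tested members in 9 comparisons; each point is a gene, red points passed an adjusted p of 0.05, the black line is the median member and the dashed blue line the median gene tested. Members are mostly below 0 for MABsallo at 3d, with 6 red points below and Rpl19 above, and mostly above 0 in both comparisons with saline at 7d.

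Whether the effect of cells differed between 3d and 7d was tested as an interaction. For MABsallo the count was 0 of 76 (all genes: 0% in either direction), with 15 members negative (5.51% of all genes) and 0 positive (8.07%) at an unadjusted p below 0.05 and 0 calls by edgeR or DESeq2. The median member was at -0.35 and the median gene at 0.08, 63 of 76 members were negative, and Rps3a had the lowest adjusted p (-0.96, adjusted p = 0.204). For MABsallo-VEGF it was 0 of 76 (all genes: 0%), with 5 members negative (2.84% of all genes) and 0 positive (5.4%) at an unadjusted p below 0.05 and 0 calls by edgeR or DESeq2. Its median member was at -0.29, 61 of 76 were negative, and Rpl29 had the lowest adjusted p (-0.69, adjusted p = 0.531). On 22 samples 0 members passed for MABsallo, where 3.06% of all genes were positive and 0.639% negative, with 13 members at an unadjusted p below 0.05, 0 calls by edgeR, a lowest adjusted p of 0.0535 and a median member at -0.29. For MABsallo-VEGF 0 members passed on 22 samples, where 3.22% of all genes were positive and 0.473% negative, with 9 members at an unadjusted p below 0.05, 0 calls by edgeR, a lowest adjusted p of 0.0945 and a median member at -0.34. A difference of the effect between the times was therefore not shown for any single member.

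The pyrimidine run was set beside the fold changes as a description. In MABsallo against saline at 3d the 37 members with the run had a median of -0.38, with 29 negative, and the 22 tested members whose window lacks it had -0.06, with 12 negative. In MABsallo-VEGF at 3d the medians were -0.21 and -0.03. In MABsallo at 7d against saline they were 0.16 and 0.24, and in saline at 3d against 7d they were 0.18 and 0.31. For the effect at 3d minus that at 7d they lay close together, at -0.49 and -0.44 for MABsallo and -0.28 and -0.29 for MABsallo-VEGF. Of the members that fell in MABsallo at 3d, Rps23, Rps3a and Rpl10 have the run and Rps27a lacks it in the annotated window, and the member that rose, Rpl19, has it. Members without the run here can start at another base than the annotated one.

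Each member's share of the members' sum was compared between the group means. In percentage points Rps16 and Rpl37a moved most between groups, and Rps16 ran from 1.49% of the members' sum in saline at 7d to 3.64% in MABsallo at 3d. By fold Rpl19 moved further, from 0.0620% in saline at 7d to 0.712% in MABsallo at 3d, or 11.5-fold. Within saline at 3d the share of Rps16 was 3.71, 0.831, 3.17 and 2.96%, and replicate 8 was the lowest of all 24 samples. Group means of Rpl37a ran from 5.25% in MABsallo at 3d to 7.40% in saline at 7d.

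The paralogs give a second measure that does not depend on the scaling of samples, their share in the pair with the parent gene. Rpl3l replaces Rpl3 in ribosomes of striated muscle. It held 1.57% to 12.1% of the pair in MABsallo at 3d (median 7.53%), 0.320% to 4.93% in saline at 3d (median 1.90%) and 1.69% to 5.97% in saline at 7d. Its normalized counts were 72.3, 419, 314 and 1013 in saline and 305, 782, 2013 and 1817 in MABsallo at 3d, ranges that overlap (1.62, adjusted p = 0.102). Striated muscle markers held 0.255% to 1.11% of all counts in saline at 3d and 0.355% to 1.53% in MABsallo, and their part in Rpl3l was not tested.

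Rps27l, a p53 target that can stand in for Rps27, held 12.1% to 13.6% of its pair in MABsallo at 3d, 14.3% to 15.7% in saline at 3d and 14.9% to 27.4% in saline at 7d. The MABsallo samples of 3d lay below all saline samples of either time in this share. Rpl10l and Rpl39l, which are expressed mainly in male germ cells, had means of 7.77 and 17.9 normalized counts. Rpl10l held at most 0.638% of its pair with Rpl10. Rpl39l held 0% to 38.5% of its pair, where Rpl39 itself was low at 129.

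Members with roles beside the core ribosome were spread over the whole range of levels. Rpl5 and Rpl11, which bind Mdm2 together and so link ribosome assembly to p53, did not pass the test in any of the 9 pairwise comparisons, and neither did Rps3, which also takes part in DNA repair, Rpl13a, Rps4x, Rplp0 or Rplp1. Rps4x, the X-linked small-subunit protein, had 6301, 5660, 2766 and 3269 normalized counts in saline at 3d and 2953, 2703, 3587 and 2707 at 7d. Replicates 6 and 8 of 3d stood above the other samples. A second row with the symbol Rps4x, with a mean of 3385, and one with the symbol Rps27a, with a mean of 1811, were not counted as members. The second row of Rps27a held 2372, 3238, 1412 and 1707 in saline at 3d and 1832, 2352, 1865 and 2246 in MABsallo, overlapping where the member row did not. The second row of Rps4x held 3839, 4845, 3953 and 3069 in saline at 3d and 2954, 2238, 1745 and 2870 in MABsallo. All its MABsallo samples lay below all saline samples, as in 5.22% of all genes, where the member row overlapped (0.05).

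Other genes of the translation machinery were set beside the members, from lists chosen with earlier results of these data known. For MABsallo against saline at 3d, 3 of 34 tested translation factors rose and 2 fell, with a list median of -0.13, where 10.7% of all genes rose and 4.48% fell. Eif4g1, the scaffold of the cap-binding complex, rose by 3.46 ± 1.16 (adjusted p = 0.0459), and the cap-binding protein Eif4e fell by 0.65 ± 0.21 (adjusted p = 0.0381). Of 11 other genes with TOP mRNAs, 1 fell, the chaperonin gene Cct4 (-0.90, adjusted p = 0.0193). Of 73 mitochondrial ribosomal protein genes, 5 fell, with a median of -0.18, and of 37 proteasome genes 4 rose. Set beside the 4.48% and 10.7% of all genes, the translation factor and proteasome counts lay close to the background.

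Among regulators, 4 of 19 genes of TOR signaling and TOP control rose in MABsallo at 3d, where 10.7% of all genes did. They were Larp1, which binds the cap and the TOP run (2.90 ± 0.65, adjusted p = 0.00915), the TOR inhibitor Deptor (3.19, adjusted p = 0.0376), the TOR complex member Rictor (2.97, adjusted p = 0.0198) and the S6 kinase Rps6kb1 (1.33, adjusted p = 0.0140). Of 32 ribosome biogenesis genes 3 rose, again beside 10.7% of all genes, with Nop56, a core protein of the nucleolar methylation complex, at 3.50 ± 0.82 (adjusted p = 0.0115) and Gnl3, a nucleolar GTPase, at 1.06 (adjusted p = 0.0479). Of 11 RNA polymerase I genes 0 passed limma's test, with 3 at an unadjusted p below 0.05 and 0 calls by edgeR or DESeq2. In MABsallo-VEGF at 3d 0 of the 217 tested genes of these lists passed limma's test against saline, with 38 at an unadjusted p below 0.05, 0 calls by edgeR and 8 by DESeq2.

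Between 3d and 7d in MABsallo 5 of 34 translation factors were higher and 13 lower at 3d, where 19.3% of all genes were higher and 11.3% lower. The counts were 4 higher and 12 lower of 32 ribosome biogenesis genes, 7 and 3 of 19 TOR and TOP control genes, and 6 and 25 of 73 mitochondrial ribosomal protein genes. Nop56 was higher at 3d by 4.32 (adjusted p = 0.000559) and Fbl, its partner methyltransferase, lower by 1.41 (adjusted p = 0.00968).

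The genes whose pattern over the 24 samples was most like the mean of the members were named by Pearson's r, as a description with shared scaling. The 10 highest included 3 with clone-based names only. The first of the other 7 was LOC100360057 at 0.839, then Rps18l1 at 0.759, the initiation factor subunit Eif3f at 0.746, the elongation factor Eef2 at 0.728, Cox7a2l at 0.725, Rps19l2 at 0.723 and Snrpb2 at 0.704. At the other end stood Fbf1 at -0.76, Thumpd3 at -0.69, Pdcd7 at -0.69, Wdr97 at -0.67 and Cyb5d1 at -0.65.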

How the data were processed

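The authors made QuantSeq 3′ libraries of rat urethra, trimmed the reads, aligned them with HISAT2 to Rnor6.0, dropped reads mapping to several places, ran HTSeq to count genes and divided by DESeq2 size factors. The deposited signal is therefore a normalized count. Every sample's values were whole multiples (100%, within 0.01) of 1 step, which was taken as 1 read and is worth 1.67 to 9.23 normalized counts. A step from DESeq2 size factors of these reads is 0.25 times the deposited one, so a read here may stand for several summed or rescaled reads. Reads show counting error only, and low members are limited by it. Groups came from the labels.

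Tests used limma 3.58.1 (R 4.3.3; moderated with trend) on log2(value + 1) for genes with a mean of at least 2, in 1 fit of 6 groups, with Benjamini-Hochberg adjustment over all genes. edgeR 4.0.16 and DESeq2 1.42.0 ran on the recovered reads as alternatives and called 8 and 11 members for MABsallo against saline at 3d. Scripts were tested on simulated data. The members and gene lists were chosen with earlier results of these data known. Named members were the 3 largest rises and falls per comparison, the highest and lowest levels, paralogs with their parents, members with further roles and the 3 largest shifts in share. Other members, such as Rpl14, Rpl36 and Rps9, were named after their values were seen. Labels do not say whether replicates were littermates or processed together. The p-values set group differences against the spread within these groups and do not account for either. Some members are counted in the totals but not reported here by name.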

Additional observations from a re-analysis of the deposited data

Results flagged for a closer look

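In groups of 4, a highest or lowest sample was set apart where its gap to the nearest other sample exceeded, as a share of the group's range, Dixon's critical value for 4 samples. Of 184 such groups of members and shares 18 met this, and chance alone gives about 1 in 20 for continuous values. That rate does not hold for groups with reads in only 1 sample, which meet the rule by construction, as those of Fau, Rpl7a and Rplp2 below do. The members' share was 5.82% in MABsallo 7d replicate 7.2 and 5.07% to 5.17% in the others. Among abundant members, Rpl19 stood at 2224 in saline 3d replicate 6 (others 651 to 818), Rps24 at 87992 in saline 3d replicate 8 (58385 to 63092), Rpl10 at 4423 in saline 3d replicate 10 (5699 to 5801) and Rps3 at 27004 in MABsallo 3d replicate 2 (19147 to 20370). Rplp1 stood at 3375 in MABsallo-VEGF 3d replicate 2 (5891 to 6347) and at 4782 in saline 7d replicate 3 (3078 to 3159). At 7d, Rpl11 stood at 37197 in MABsallo replicate 13 (26434 to 27553), Rpl5 at 5831 in MABsallo-VEGF replicate 11 (6986 to 7186) and Rps4x at 4782 in the same sample (3332 to 3490). The remaining cases hold few reads. Rpl39l stood at 31.2 in MABsallo-VEGF 3d replicate 4 (0 to 5.04), and Rpl10l at 0 in saline 7d replicate 2 (16.9 to 20.1). Fau stood at 5.47 in MABsallo 3d replicate 2, at 15.1 in MABsallo-VEGF 3d replicate 3 and at 2.49 in saline 7d replicate 2, Rpl7a at 5.47 in MABsallo 3d replicate 2 and 1.67 in MABsallo 7d replicate 11, and Rplp2 at 1.67 in the latter, each with 0 in the other samples of its group.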

How the results depend on the processing

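No fold change of a called member changed sign under any alternative run. The median of the members changed sign in 3 comparisons whose median lay near 0, for MABsallo-VEGF against MABsallo at 3d (-0.01 without MABsallo-VEGF replicate 4, and on 22 samples), for MABsallo-VEGF 3d against 7d (0.06 without 3d replicate 2) and for MABsallo-VEGF against MABsallo at 7d (0.07 without MABsallo replicate 13). Besides leaving out samples, 77 of 100 counts of called members stayed within 1.5 times the reported count, 95 of 100 medians moved by less than the SD of 0.19 between replicates, and 143 of 162 fold changes of single called members kept their call. For MABsallo against saline at 3d, 17 members were called with equal totals (median -0.51), 11 with quantile normalization, 0 when only the groups compared were fitted, 11 by DESeq2 and 13 by edgeR on 22 samples. For MABsallo-VEGF against saline at 3d, the count was 4 on 22 samples, 1 by DESeq2 and 5 by edgeR on 22 samples, and the median -0.36 with equal totals. For saline 3d against 7d it was 1 without the filter, 1 with quantile normalization and 4 by DESeq2. For MABsallo 3d against 7d it was 21 with equal totals (median -0.39), 6 with only the groups compared, 18 by edgeR, 16 by DESeq2 and 21 by edgeR on 22 samples. For MABsallo-VEGF 3d against 7d it was 4 with equal totals, 3 with quantile normalization, 0 with only the groups compared, 8 on 22 samples, 2 by edgeR, 4 by DESeq2 and 8 by edgeR on 22 samples (median -0.29). The interaction for MABsallo had a median of -0.55 with equal totals. Equal totals moved the median of all genes in MABsallo against saline at 3d from 0.07 to -0.19. With quantile normalization the median gene was at -0.21 in both cell comparisons of 3d with 7d and the median member above it, at -0.10 and -0.00. The share of MABsallo relative to saline at 3d was 0.8315 without the 100 highest genes, 0.8353 without mitochondrial RNA and 0.851 of protein-coding counts, and that of MABsallo-VEGF 0.8781, 0.8672 and 0.8763. The cause of these moves was not tested.

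Leaving out 1 sample at a time gave 0 to 11 calls for MABsallo and 0 to 4 for MABsallo-VEGF against saline at 3d (4 without MABsallo-VEGF replicate 4, 1 without saline replicate 6). It gave 7 to 14 for MABsallo, 0 to 7 for MABsallo-VEGF (7 without 3d replicate 4) and 0 to 1 for saline between 3d and 7d, and 0 in the other comparisons. Share ratios then ran from 0.6233 to 0.7398, 0.6755 to 0.8466 and, for saline 3d over 7d, 1.0583 to 1.1657. MABsallo and MABsallo-VEGF at 3d share replicate numbers 1 to 4. Correlations of deviations were 0.22, 0.15, 0.07 and 0.25 for equal numbers and ran from -0.22 to 0.20 for unequal ones. The labels state no pairing, and whether equal numbers mark one cannot be told from these values. The fit with the replicate block called 0 members, with a median of 0.07.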
